A study of Mus musculus with 4 samples.

Results

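Interleukins are secreted signals between cells, and interleukin receptors are the membrane chains that bind them. The genes described here are those whose symbol in the deposited table starts with Il and a digit, but for 1 symbol not reported here. The rule gave 82 of the 24907 genes of the table: 36 ligands, 40 receptor chains, 4 soluble antagonists or binding proteins and 2 others. RNA-seq counts were available for 4 libraries of ASZ001, a line of mouse basal cell carcinoma (BCC) cells. The cells carried an inducible vector that doxycycline switches on, and doxycycline (Dox) was given to every culture. In the control group (2 libraries) the vector was empty. In the c-FOS group (2 libraries) it held c-FOS, a subunit of the transcription factor AP-1. The comparison asks which interleukin transcripts differ once c-FOS is expressed from the vector. No library came from cells of either kind without Dox, so c-FOS itself and other differences between the kinds of cell cannot be told apart. The labels number the libraries but do not name separate cultures, so p-values here measure only how far these samples lie apart, which may be technical spread.

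Most interleukins act between leukocytes, but keratinocytes, the epithelial cells from which BCC arises, make some of them and carry receptors for others. Ligands of the IL-1 family use receptors that pair a specific chain with an accessory chain and signal through the adaptor MyD88. Ligands of the IL-6, IL-4, IL-12 and IL-10 families use receptors that signal through JAK kinases and STAT factors. The IL-17 family uses a separate class of receptors with the adaptor Act1, the product of Traf3ip2. In skin, IL-17 and IL-22 act on keratinocytes, and IL-33 is released by damaged epithelium.

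The libraries held 28404841 and 29821832.5 counts in the control group and 29199449 and 32464123 counts in the c-FOS group. Fos had 0.403 and 0.351 counts per 1000000 (CPM) in the control libraries and 296.8 and 313.3 CPM in the c-FOS libraries, so it was high in the libraries labelled c-FOS. Keratinocyte markers summed to 26560 and 26460 CPM in the control and to 13280 and 13810 CPM in the c-FOS libraries. Of these 8 genes, the keratins Krt5, Krt14, Krt15 and Krt17 and also Trp63 and Cdh1 were lower, while Epcam (-0.01 ± 0.04) and Dsp (0.04 ± 0.04; log2 fold change ± SE) did not pass. Markers of B cells (5 genes) and mast cells (5 genes) were at 0 in every library, and 7 of 8 T and NK cell markers were at 0, the exception being Lck. Of 10 macrophage and myeloid markers, Ptprc, which encodes the leukocyte antigen CD45, lay between 0 and 0.0899 CPM, whereas the list sum was 19.0 and 17.0 CPM in control libraries against 41.6 and 45.0 CPM with c-FOS. The 3 tested markers of this list, Csf1r, Cd68 and Cd14, were all higher with c-FOS, and Itgax was at 0. Csf1r went from 0.387 and 0.224 CPM to 18.39 and 18.45 CPM. Itgam, Adgre1, Lyz2, Fcgr3 and Mrc1 had at most 3.5 counts in a library and were not tested. Fibroblast markers (8 genes) summed to 5.40 and 5.65 CPM in control and to 17.7 and 19.1 CPM in c-FOS libraries, with Thy1 at 0. Pdgfra (4.24 and 4.23 against 11.3 and 11.9 CPM) and Col1a2 (0.471 and 0.607 against 2.98 and 3.905 CPM) were higher. Pdgfrb was also called higher (0 and 0 against 2.71 and 2.65 CPM), while Col1a1 did not pass. Pdgfrb reached 0.339 CPM, the level needed for a test, in the c-FOS libraries only and so had to be higher. Dcn had 8.5 and 18.5 counts against 4 and 3.5 and was not tested. Lum and Col3a1 had at most 1 count in a library. Endothelial markers (5 genes) summed to 83.8 and 80.4 CPM and to 103.0 and 102.3 CPM, nearly all of it Pecam1 (83.0 and 79.5 against 101.0 and 100.2 CPM). Pecam1 was called higher, and so was Tek, at 0.672 and 0.846 CPM in control against 1.923 and 1.985 CPM in c-FOS libraries. Kdr was at 0, Cdh5 had at most 1 count in a library and Cd34 at most 4. Whether other cells had a part in the results was not tested. In such bulk samples, fewer cells of a type and less RNA per cell cannot be told apart.

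The promoter stretches below are shown because they belong to genes whose results are described in detail. Each is the 250 bases before a transcription start in RefSeq on build GRCm38.p6, read 5′ to 3′ on the gene's strand. Capitals mark TGANTCA, a 7-base pattern with any base at N, which as a pattern reads the same on both strands. It takes in TGACTCA and TGAGTCA, the forms that AP-1 is best known to bind, and also TGAATCA and TGATTCA. The Il11 window (chr7:4778142-4778391, minus strand) belongs to a ligand that was higher with c-FOS and holds the pattern, as TGAGTCA, 98 bases before the start. The Il22ra1 window (chr4:135727909-135728158, plus strand) belongs to the receptor gene with the lowest fold change. It holds the pattern 222 bases before the start, as TGAATCA and so not in the form best known for AP-1. The Il18rap window (chr1:40515112-40515361, plus strand) belongs to the receptor gene with the highest fold change and holds none.

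Il11: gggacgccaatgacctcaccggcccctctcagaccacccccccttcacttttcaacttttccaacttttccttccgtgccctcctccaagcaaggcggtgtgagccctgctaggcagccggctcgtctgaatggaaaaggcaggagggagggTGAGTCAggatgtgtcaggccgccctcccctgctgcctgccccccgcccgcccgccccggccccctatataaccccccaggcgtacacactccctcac
Il22ra1: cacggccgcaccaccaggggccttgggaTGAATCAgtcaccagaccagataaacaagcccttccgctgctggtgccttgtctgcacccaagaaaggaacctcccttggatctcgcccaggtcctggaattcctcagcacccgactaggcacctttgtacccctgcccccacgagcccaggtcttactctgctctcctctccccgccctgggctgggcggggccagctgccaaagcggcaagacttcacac
Il18rap: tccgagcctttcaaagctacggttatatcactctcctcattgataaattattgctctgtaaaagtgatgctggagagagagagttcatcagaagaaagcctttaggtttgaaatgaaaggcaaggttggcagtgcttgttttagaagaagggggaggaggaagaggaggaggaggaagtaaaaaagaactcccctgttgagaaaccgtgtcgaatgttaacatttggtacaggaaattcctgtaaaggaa

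Windows were matched by symbol for 66 of the 82 genes, among them 27 of the 31 genes expressed highly enough to be tested. A start with TGANTCA was found for 1 of 11 genes that were higher (Il11), 2 of 7 that were lower (Il17rb and Il22ra1) and 1 of 9 that did not pass (Il1rn). Il11, Il17rb and Il1rn hold it as TGAGTCA and Il22ra1 as TGAATCA. Il11 and Il1rn have further starts without it. Of all 32851 such windows in the table, 6.75% hold the pattern with any base at N. The related element TGACGTCA, searched on both strands, was in none of the 36 windows of the tested genes and in 1.55% of all windows. A match is a description of these letters and not a binding site.

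Few ligands (6 of 36) but 22 of 40 receptor chains had enough reads to be tested. In all 4 libraries together, 23 of the 82 genes had 0 counts: 14 ligands, 8 receptor chains and 1 binding protein. A count of 0 allows up to 0.101 and 0.0958 CPM in the control libraries and 0.108 and 0.0968 CPM in the c-FOS libraries (3 counts each, counting error only). The silent ligands were the T helper cytokines Il2, Il3, Il4, Il9, Il13, Il17a and Il22, the IL-36 ligands Il1f6, Il1f8 and Il1f9, Il1f10, and Il10, Il20 and Il31. The silent receptor chains were Il7r, Il10ra, Il13ra2, Il20ra, Il21r, Il31ra, Il1rapl1 and Il11ra2. Il11ra2 is a near copy of Il11ra1, and how reads were shared between them is unknown here. The silent binding protein was Il22ra2, a soluble decoy for IL-22.

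**Figure D1:**
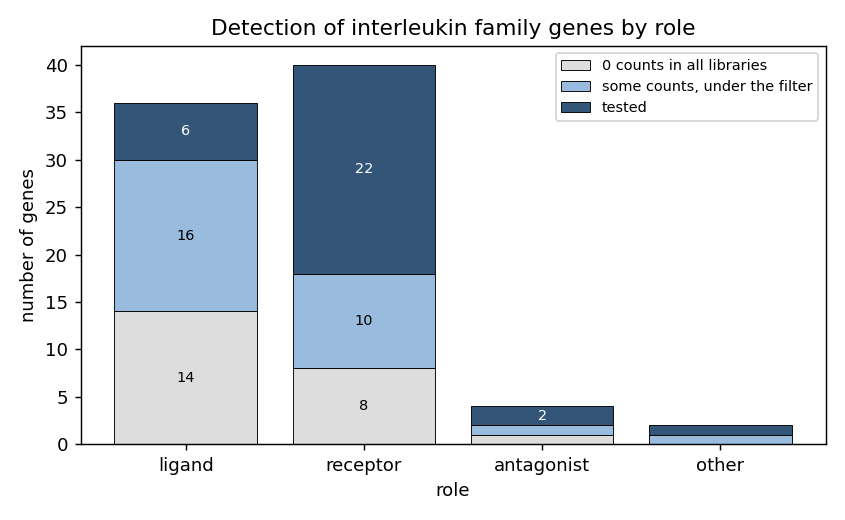
Number of genes (vertical axis) in each role, divided into genes with 0 counts in all libraries, genes with some counts under the filter, and tested genes; segments of 1 gene carry no number. Of 36 ligands, 6 were tested, against 22 of 40 receptor chains.

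A further 28 genes had some counts but too few to be tested, with at most 13 counts in any library. They were 16 ligands, 10 receptor chains, the antagonist Il1f5 and the antisense transcript Il1bos. The prototype inflammatory cytokines belonged to this class. Il1a had 0 and 1 counts in the control libraries and 0 and 0 with c-FOS, Il1b had 0.5 and 0 against 0 and 1, and Il6 had 0 and 1.5 against 2.5 and 1.5. The c-FOS libraries thus showed no more than 2.5 counts of any of these 3 genes. Il1b and the antisense Il1bos overlap, and whether the counting used strand is unknown here.

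Some of these low genes differed in raw counts, although they were not part of the test. Il23a, the p19 chain of IL-23, had 2 and 2 counts in the control libraries and 10.5 and 10 with c-FOS. Il24, a ligand of the IL-20 receptors, had 0 and 0 counts against 1.5 and 5.5. Il16, a chemoattractant made as a long precursor, had 8 and 6.5 counts in the control libraries and 0 and 1.5 with c-FOS. These 3 are the low genes that pass when no filter is used, at an adjusted p of 0.0127, 0.0336 and 0.037 (edgeR). Il15ra, the chain that presents IL-15, had 13 and 6 counts against 3.5 and 1.5 and does not pass there. Il27ra had 0 and 0 counts against 4 and 1, Il2rb had 0 and 0 against 2 and 3, and Il12rb1 had 0 and 0 against 2 and 1. Il19 had 3 and 1 counts in the control against 0.5 and 0. At these counts the size of a difference could not be determined.

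The other 31 genes were tested: 6 ligands, 22 receptor chains, 2 antagonists and 1 enzyme. A gene was called higher or lower when its edgeR quasi-likelihood p, adjusted by Benjamini and Hochberg's method over all 12780 tested genes, was under 0.05. Of the 31, 14 were higher with c-FOS, 7 were lower and 10 did not pass. Over all tested genes 33.8% were called higher and 33.4% lower, 67.2% in all, so the 21 calls among 31 genes (67.7%) are near that background. The median log2 fold change of the 31 genes was 0.21, against -0.01 over all tested genes, and their median absolute log2 fold change was 0.74, against 0.32. At a log2 fold change of at least 1 in size, 9 were higher and 2 lower, where 7.75% and 7.73% of all tested genes were. When library totals replaced the TMM factors, 13 were higher and 11 lower (54.2% of calls higher, against 66.7%). Under that scaling the median over all tested genes was -0.14 and 35.4% of their calls were higher, against 50.4%. CPM values of the groups did not overlap for 28 of the 31 genes, and for 83.6% of all tested genes.

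The filter bears on these counts. Of the 31 genes, 5 reached its level of 0.339 CPM in the libraries of 1 group only and so had to differ: Il33, Il11, Il17d and Il1rl1 in the c-FOS and Il4i1 in the control libraries. Of the other 26, 10 were higher, 6 lower and 10 did not pass. At a log2 fold change of at least 1 in size, 5 of the 26 were higher and 1 was lower. The median log2 fold change of the 26 was -0.05 and their median absolute log2 fold change 0.46, so the sign of the median over all 31 rests on those 5 genes. The counts and medians over the 31 are therefore a description only.

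**Figure D2:**
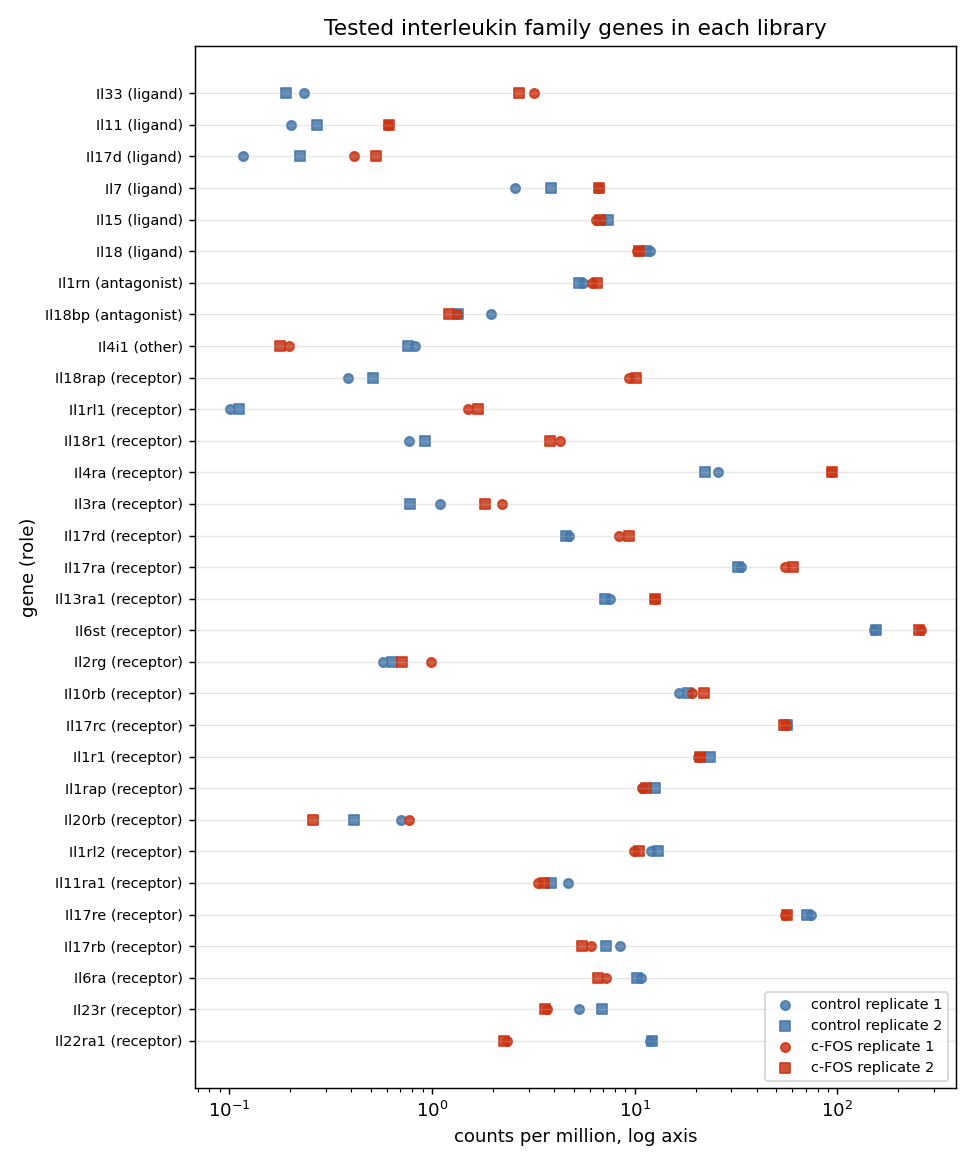
CPM of the 31 tested genes (rows, with their role) in each of the 4 libraries on a log axis, circles for replicate 1 and squares for replicate 2. The 2 c-FOS libraries of Il18rap lie at 9.40 and 10.1 CPM and its 2 control libraries at 0.387 and 0.511 CPM.

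Of the 6 tested ligands, 4 were higher with c-FOS and 2 did not pass, where 33.8% of all tested genes were called higher and 67.2% in all. Il33, Il11 and Il17d reached the filter's level in the c-FOS libraries only and so had to be higher. Nothing particular to ligands is read from this count. Il33, an alarmin of the IL-1 family that is stored in the nucleus, was at 0.235 and 0.192 CPM in the control and at 3.181 and 2.695 CPM in the c-FOS libraries. Both c-FOS libraries lay far above both control libraries, which rest on 7 and 6 counts. Its log2 fold change was 3.76 ± 0.29 (SE), and the edgeR test gave an adjusted p of 9.7e-08. Il7, a growth factor for lymphocytes that keratinocytes also make, was at 2.57 and 3.88 CPM in the control and at 6.70 and 6.68 CPM in the c-FOS libraries. Its control libraries were further apart than its c-FOS libraries, and the groups did not overlap. The log2 fold change of Il7 was 1.05 ± 0.17 (SE), and the same edgeR test gave an adjusted p of 9.11e-05.

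Il11, a cytokine of the IL-6 family, was at 0.202 and 0.271 CPM in the control and at 0.611 and 0.613 CPM in the c-FOS libraries (log2 fold change 1.40 ± 0.41 SE; adjusted p = 0.0079, edgeR). Il17d, an IL-17 family ligand, was at 0.118 and 0.224 CPM against 0.413 and 0.533 CPM (1.38 ± 0.47 SE; adjusted p = 0.0193, edgeR). Groups did not overlap for either gene, but counts were at most 19. Il11 lost its call in DESeq2 (adjusted p = 0.12) and when either c-FOS library was left out (0.0553 for replicate 1 and 0.0609 for replicate 2). Il17d lost it in DESeq2 (0.184) and without control replicate 1 (0.108), c-FOS replicate 1 (0.0674) or c-FOS replicate 2 (0.162). The adjusted p ranged from 0.00767 to 0.12 for Il11 and from 0.015 to 0.184 for Il17d across the alternatives.

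Il18 and Il15 were the most abundant ligands per length and did not pass. Il18, a cytokine that epithelium holds as an inactive precursor, was at 12.0 and 11.4 CPM in the control and at 10.3 and 10.5 CPM in the c-FOS libraries. Il15, which supports NK cells and memory T cells, was at 6.89 and 7.41 against 6.45 and 6.76 CPM. For both genes the c-FOS libraries were slightly below the control libraries, with log2 fold changes of -0.17 ± 0.09 and -0.11 ± 0.11 (SE). Il18 passed as lower with library totals (-0.30; adjusted p = 0.00832) and upper-quartile factors (-0.23; 0.0361) in edgeR, and its adjusted p reached 0.389 at most over the alternatives. Per kilobase of the deposited gene model, the control level of Il18 was 9.07 ± 0.33 CPM and the c-FOS level 8.07 ± 0.0862 CPM (SD, n = 2). Il33 was at 0.0838 ± 0.0121 and 1.15 ± 0.135 CPM per kilobase, below Il18 in both groups.

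The antagonists did not pass. Il1rn, which encodes the IL-1 receptor antagonist, was at 5.56 and 5.35 CPM in the control and at 6.15 and 6.54 CPM in the c-FOS libraries. Il18bp, a soluble trap for IL-18, was at 1.97 and 1.34 CPM against 1.33 and 1.21 CPM. The c-FOS libraries lay above the control for Il1rn and below it for Il18bp. Il18bp passed as lower without control replicate 2 (-0.61; adjusted p = 0.0469, edgeR), and its adjusted p reached 0.848 over the alternatives run. Il1f5, the antagonist of the IL-36 receptor, had at most 2.5 counts in a library.

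Of the 22 tested receptor chains, 10 were higher with c-FOS, 6 were lower and 6 did not pass. That is 72.7% called, near the 67.2% of all tested genes, of which 33.8% were higher and 33.4% lower. Among the 10, Il1rl1 reached the filter's level in the c-FOS libraries only. The median log2 fold change of the 22 chains was 0.11. The highest fold changes were in the IL-1 receptor family. Il18rap, the signalling accessory chain of the IL-18 receptor, was at 0.387 and 0.511 CPM in the control and at 9.40 and 10.1 CPM in the c-FOS libraries. Both c-FOS libraries were thus well above the control, with a log2 fold change of 4.40 ± 0.18 (SE) and an adjusted p of 1.64e-10 (edgeR). Il18r1, the chain that binds IL-18, was at 0.773 and 0.926 CPM in the control and at 4.28 and 3.83 CPM in the c-FOS libraries. Its log2 fold change was 2.24 ± 0.20 (SE), with an adjusted p of 4.35e-07 (edgeR). The pair of chains that make the IL-18 receptor therefore rose, while their ligand Il18 did not pass.

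Il1rl1, which encodes ST2, the receptor for IL-33, was at 0.101 and 0.112 CPM in the control and at 1.51 and 1.69 CPM in the c-FOS libraries. The control values rest on 3 and 3.5 counts, and both c-FOS libraries were higher. The log2 fold change was 3.75 ± 0.38 (SE), with an adjusted p of 1.27e-06 (edgeR). Soluble and membrane forms of ST2 come from this gene, and the counts per gene do not separate them. Il33 and its receptor gene Il1rl1 both rose, whereas Il1rap, the accessory chain that IL-1, IL-33 and IL-36 receptors share, did not pass. Il33 and Il1rl1 reached the filter's level in the c-FOS libraries only, so nothing is read from their rising together.

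Il1rap was at 10.96 and 12.58 CPM in the control and at 10.86 and 11.36 CPM in the c-FOS libraries. Il1r1, the signalling receptor for IL-1, was at 20.6 and 23.4 CPM against 21.0 and 21.0 CPM. The groups overlapped for both genes, with log2 fold changes of -0.08 ± 0.10 and -0.07 ± 0.08 (SE). With library totals Il1r1 passed as lower (-0.21; adjusted p = 0.0344, edgeR), and its adjusted p reached 0.773 at most over the alternatives. Il1rl2, the IL-36 receptor, was at 12.07 and 13.04 CPM in the control and lower, at 9.94 and 10.5 CPM, in the c-FOS libraries (-0.30 ± 0.09 SE; adjusted p = 0.0119, edgeR). It lost the call in DESeq2 (adjusted p = 0.0999) and without c-FOS replicate 1 (0.104), the range over the alternatives being 0.000903 to 0.104. The decoy receptor Il1r2 had at most 1.5 counts in a library.

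The IL-1 receptor genes lie side by side on mouse chromosome 1. In RefSeq the protein-coding order is Il1r2, Il1r1, Il1rl2, Il1rl1, Il18r1 and Il18rap, with Map4k4 before and Slc9a4 after them. Il1rl1, Il18r1 and Il18rap, the 3 adjacent genes at one end, were those that rose. Il1r1 did not pass and Il1rl2 was lower. Slc9a4, a sodium-proton exchanger gene, had at most 1.5 counts in a library. Map4k4, a kinase gene, was at 286.8 and 271.7 CPM in the control and at 367.5 and 376.4 CPM in the c-FOS libraries, a log2 fold change of 0.41 ± 0.04 (SE). These flanking genes and the order were looked up after the values were seen, and adjacency was not tested.

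**Figure D3:**
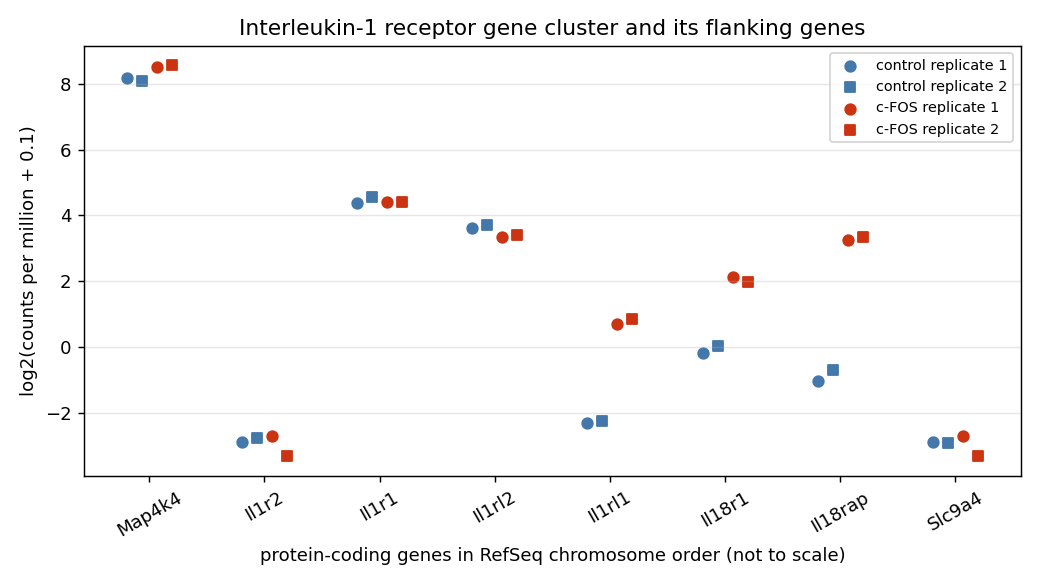
Level in each library, as log2(CPM + 0.1), of the IL-1 receptor genes and their flanking genes, in chromosome order and not to scale. Control and c-FOS libraries lie furthest apart at Il1rl1, Il18r1 and Il18rap, the last with 0.387 and 0.511 CPM in control libraries against 9.40 and 10.1 CPM with c-FOS. The groups also do not overlap at Il1rl2, which was lower with c-FOS, and at Map4k4, which was higher.

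Receptor chains for IL-4 and IL-13 were higher with c-FOS. Il4ra, the chain that both cytokines use, was at 25.9 and 22.3 CPM in the control and at 92.8 and 93.7 CPM in the c-FOS libraries. The c-FOS libraries were close to each other and above both control libraries. The log2 fold change was 1.95 ± 0.06 (SE), with an adjusted p of 9.99e-12 (edgeR). Il13ra1, its partner in the type II receptor of non-immune cells, was at 7.58 and 7.17 CPM against 12.6 and 12.7 CPM (0.78 ± 0.09 SE; adjusted p = 7.65e-06, edgeR). Both chains of the type II receptor thus rose, and the ligands Il4 and Il13 had 0 counts in every library. Il2rg, the common gamma chain, was low, at 0.572 and 0.639 CPM against 0.989 and 0.710 CPM, and did not pass (0.49 ± 0.32 SE). In the mouse annotation GENCODE M21, 30.5% of the exon bases of Il2rg are shared with another gene model, so its reads are less certain. Apart from Il4i1, given below, the next highest shares among the tested members were 14.9% for Il10rb and 9.51% for Il4ra.

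Il3ra, the alpha chain of the IL-3 receptor, was at 1.09 and 0.782 CPM in the control and at 2.21 and 1.82 CPM in the c-FOS libraries. The groups did not overlap, with a log2 fold change of 1.13 ± 0.25 (SE) and an adjusted p of 0.00124 (edgeR). Its partner Csf2rb was also higher, at 1.24 and 1.07 CPM against 1.56 and 2.53 CPM (0.83 ± 0.26 SE; adjusted p = 0.0119, edgeR). A gene of similar name, Csf2rb2, had 4.5 and 6 counts in the control against 7 and 18.5 with c-FOS and was not tested. How reads were shared between Csf2rb and Csf2rb2 is unknown here. Il3ra and Csf2rb are chains of leukocyte receptors. Of the 10 macrophage and myeloid markers, the 3 tested were all higher. Csf1r was at 0.387 and 0.224 CPM in the control and at 18.4 and 18.5 CPM with c-FOS. Cd68 was at 11.82 and 10.33 against 13.55 and 15.14 CPM, and Cd14 at 6.54 and 6.37 against 9.33 and 11.26 CPM. Ptprc stayed at or below 0.0899 CPM, Itgax was at 0, and Itgam, Adgre1, Lyz2, Fcgr3 and Mrc1 had at most 3.5 counts in a library. Whether leukocytes had a part in these values was not tested.

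Of the IL-6 receptor chains, the shared one was higher with c-FOS and the specific one was lower. Il6st, which encodes gp130, the signalling chain of the receptors for IL-6 and IL-11, was at 150.9 and 155.3 CPM in the control and at 258.6 and 252.7 CPM in the c-FOS libraries. Replicates were close and the groups apart, with a log2 fold change of 0.74 ± 0.04 (SE) and an adjusted p of 1.29e-09 (edgeR). Il6ra, the chain specific for IL-6, was at 10.8 and 10.2 CPM in the control and lower, at 7.225 and 6.568 CPM, in the c-FOS libraries (-0.60 ± 0.10 SE; adjusted p = 0.000153, edgeR). Il11ra1, specific for IL-11, was at 4.67 and 3.86 CPM against 3.34 and 3.57 CPM and did not pass (-0.30 ± 0.15 SE; adjusted p = 0.0905, edgeR). It passed as lower with library totals (adjusted p = 0.018), with upper-quartile factors (0.0449) and without control replicate 2 (0.0247), and reached 0.433 at most over the alternatives.

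Il22ra1, the chain that gives epithelium its response to IL-22, fell the most of the receptor genes. It was at 12.0 and 12.2 CPM in the control and at 2.34 and 2.26 CPM in the c-FOS libraries. Replicates were close and the groups far apart. The log2 fold change was -2.40 ± 0.12 (SE), with an adjusted p of 1.01e-09 (edgeR). Il10rb, the partner chain of the IL-22 and IL-10 receptors, was at 16.6 and 18.3 CPM in the control and at 19.2 and 22.1 CPM in the c-FOS libraries (0.24 ± 0.09 SE; adjusted p = 0.0269, edgeR). This call was lost with library totals (adjusted p = 0.298), upper-quartile factors (0.0854) and DESeq2 (0.0876), and without control replicate 1 (0.0632) or c-FOS replicate 2 (0.315), in a range of 0.000542 to 0.315. Il20rb, a chain of the IL-20 receptors, was at 0.706 and 0.415 CPM against 0.773 and 0.258 CPM, with groups that overlapped. Ifnlr1, which pairs with Il10rb in the interferon lambda receptor, was also lower, by -0.66 ± 0.09 (SE) on the log2 scale (14.5 and 13.7 CPM against 9.15 and 8.68 CPM).

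Il23r, the specific chain of the IL-23 receptor, was at 5.30 and 6.95 CPM in the control and at 3.70 and 3.62 CPM in the c-FOS libraries. The groups did not overlap, with a log2 fold change of -0.75 ± 0.15 (SE) and an adjusted p of 0.000689 (edgeR). Its partner Il12rb1 had at most 2 counts in a library.

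The chains of the IL-17 receptors were divided. Il17ra, the chain shared by the receptors for IL-17A, IL-17C and IL-25, was at 33.6 and 32.3 CPM in the control and higher, at 55.4 and 60.4 CPM, in the c-FOS libraries (0.81 ± 0.06 SE; adjusted p = 3.86e-08, edgeR). Il17rd, also known as Sef and a feedback inhibitor of FGF signalling, was at 4.72 and 4.58 CPM against 8.34 and 9.41 CPM (0.94 ± 0.12 SE; adjusted p = 9.59e-06, edgeR). In both genes each c-FOS library was above each control library. Il17re, the receptor for IL-17C, was at 74.2 and 70.7 CPM in the control and lower, at 55.5 and 56.3 CPM, in the c-FOS libraries (-0.37 ± 0.05 SE; adjusted p = 9.33e-06, edgeR). Il17rb, the receptor for IL-25, was at 8.49 and 7.20 CPM against 6.09 and 5.54 CPM (-0.43 ± 0.12 SE; adjusted p = 0.0067, edgeR). Il17rb lost its call in DESeq2 (adjusted p = 0.0622) and without c-FOS replicate 2 (0.0621), the lowest value over the alternatives being 0.000139. Il17rc, the partner of Il17ra in the IL-17A receptor, was at 56.2 and 56.8 CPM against 56.0 and 54.6 CPM and did not pass (-0.03 ± 0.05 SE). With library totals it passed as lower (-0.17; adjusted p = 0.0054, edgeR), and over the alternatives the adjusted p reached 0.908.

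**Figure D4:**
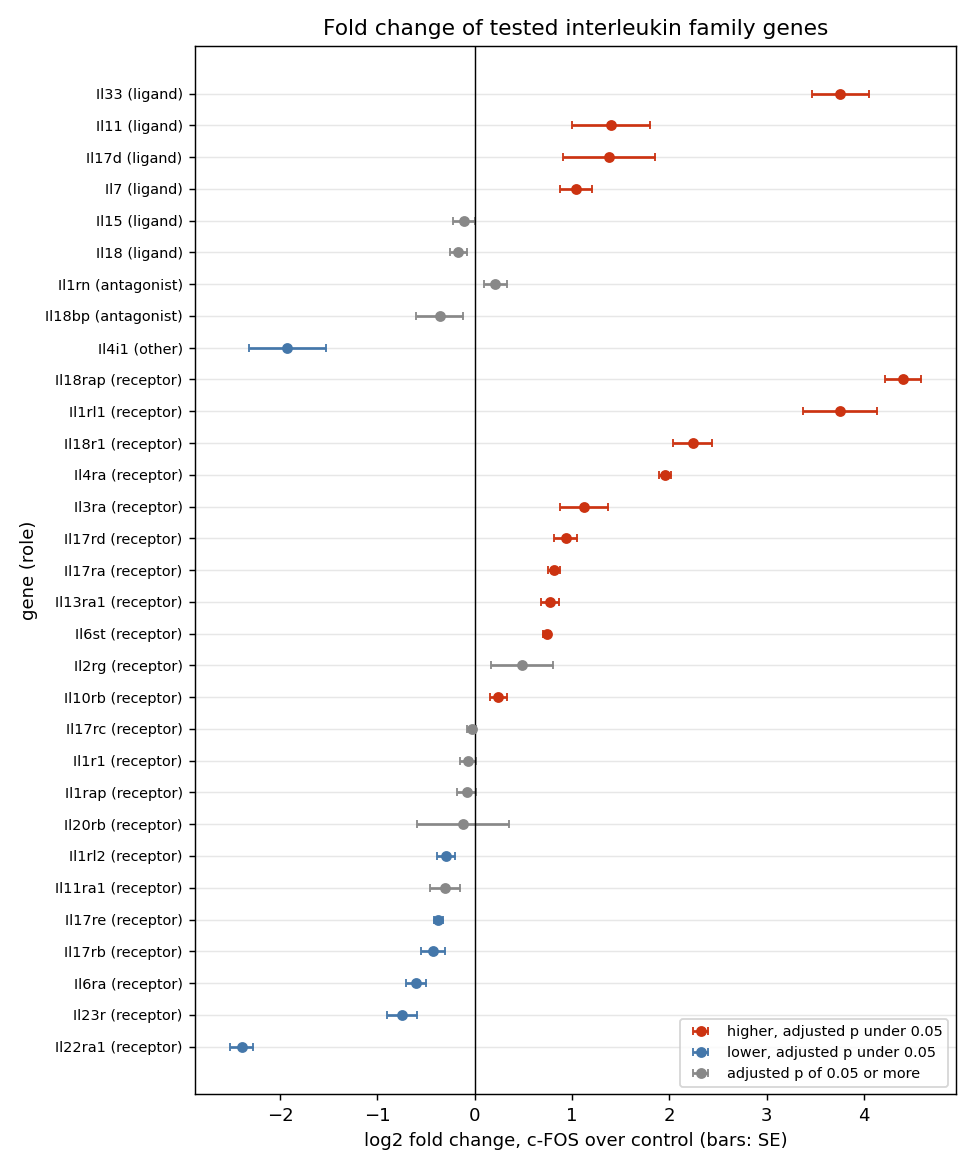
Log2 fold change of c-FOS over control with its SE for the 31 tested genes (rows, with their role), coloured by call. The receptor genes range from 4.40 for Il18rap to -2.40 for Il22ra1, and the 4 ligands called higher range from 3.76 for Il33 to 1.05 for Il7.

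Il4i1, a secreted amino acid oxidase named for its induction by IL-4, was at 0.824 and 0.766 CPM in the control and at 0.198 and 0.178 CPM in the c-FOS libraries. It was lower, with a log2 fold change of -1.92 ± 0.39 (SE) and an adjusted p of 0.000701 (edgeR). Of its annotated exon bases in GENCODE M21, 86.3% are shared with Nup62, Atf5 or Tbc1d17, so the origin of these reads is uncertain.

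Levels can be set beside each other between genes only per length, here as CPM per kilobase of the deposited gene model. On that scale Il6st was highest in both groups, at 28.2 ± 0.566 in the control libraries and 47.1 ± 0.778 with c-FOS (SD, n = 2). In the control group Il17re (27.7 ± 0.944) was next and did not differ from Il6st beyond their spread, followed by Il17rc at 24.1 ± 0.174. In the c-FOS group Il17rc (23.5 ± 0.394) and Il17re (21.3 ± 0.226) came next, and then Il4ra at 18.4 ± 0.128, which ranked 8 of 31 in the control at 4.74 ± 0.498. Il22ra1 moved from rank 17 (2.08 ± 0.0318) to rank 26 (0.395 ± 0.00938). Il18rap moved from rank 29 (0.0921 ± 0.0180) to rank 17 (2.004 ± 0.107). Il1rl1 was last in the control (0.0201 ± 0.00146) and at rank 29 with c-FOS (0.303 ± 0.0247).

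**Figure D5:**
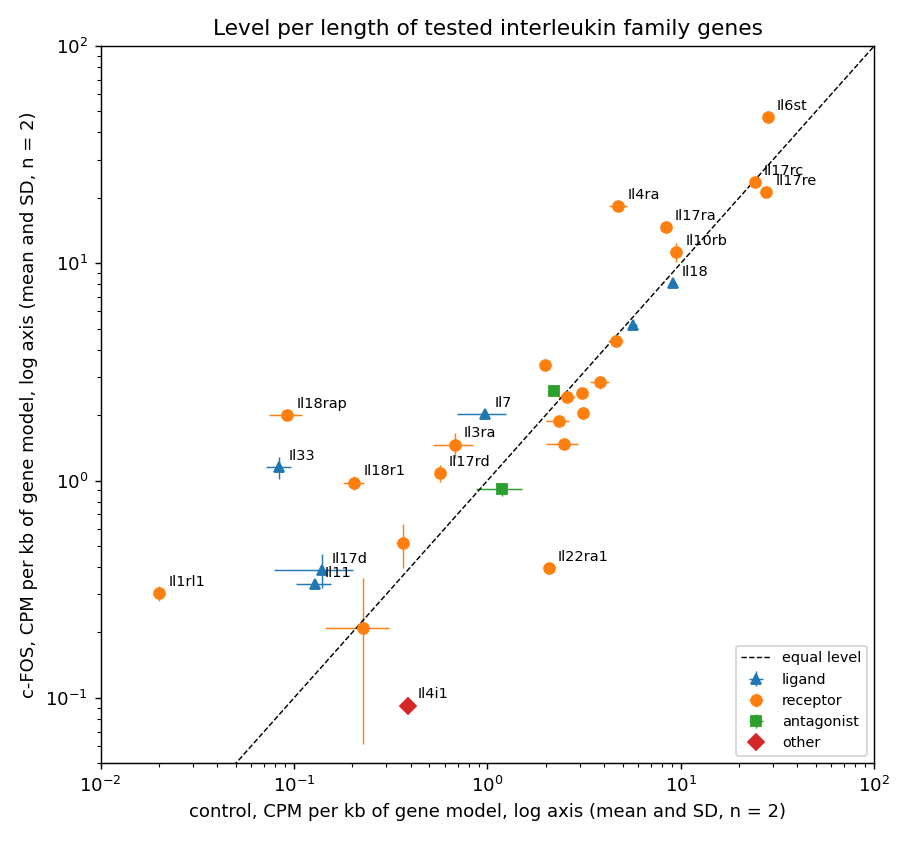
CPM per kilobase of gene model in the control (horizontal) and c-FOS libraries (vertical) on log axes, as mean and SD with n = 2, with a marker for each role and a dashed line of equal levels. Il4ra, Il18rap, Il33 and Il1rl1 lie above the line and Il22ra1 below it, at 2.08 in control and 0.395 in c-FOS libraries.

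Receptors work as sets of chains. Of 26 known chain combinations, 14 had every chain among the tested genes: the receptors for IL-1, IL-33, IL-36, IL-18, IL-3, IL-6, IL-11, IL-22, IL-17A, IL-17C and IL-25, both IL-4 receptors and the type II IL-20 receptor. In 3 of them, those for IL-18 and IL-3 and the type II receptor for IL-4 and IL-13, every chain was higher with c-FOS. With 33.8% of all tested genes called higher, nothing particular to these sets is read from that count. The chain with the lowest level per kilobase was Il18rap (0.0921) in control and Il18r1 (0.977) in c-FOS libraries for the IL-18 receptor. For the IL-33 receptor it was Il1rl1 (0.0201 and 0.303), for the type II IL-4 receptor Il13ra1 (1.99 and 3.41), and for the IL-22 receptor Il22ra1 (2.08 and 0.395). Receptors for IL-2, IL-7, IL-9, IL-15, IL-21, IL-5, IL-31, IL-12, IL-23, IL-27, IL-10 and the type I IL-20 receptor lacked at least 1 chain among the tested genes. The count is of transcripts only.

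All 82 genes together held 0.0513% and 0.0517% of the counts in the control libraries and 0.0647% and 0.0651% with c-FOS. Receptor chains summed to 458.8 and 460.7 CPM in the control and to 642.5 and 645.3 CPM in the c-FOS libraries. Without Il6st these sums were 307.9 and 305.4 CPM against 383.9 and 392.6 CPM. The ligands summed to 22.6 and 23.9 CPM against 28.4 and 28.5 CPM.

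Genes that carry or partner interleukin signals were taken from 6 lists with 61 members, of which 52 were tested. Of these, 19 were higher, 10 lower and 23 did not pass, a share of 55.8% called against 67.2% of all tested genes, with a median log2 fold change of 0.09. With library totals 13 were higher and 18 lower (41.9% of calls higher, against 65.5%). Over all tested genes 35.4% of calls were higher under that scaling, against 50.4%. The JAK kinases all passed: Jak1 (0.38 ± 0.04), Jak2 (0.53 ± 0.06) and Tyk2 (0.39 ± 0.05) were higher and Jak3 was lower (-0.70 ± 0.08; log2 fold change ± SE). Among the STAT factors, Stat5a was higher (0.39 ± 0.08) and Stat2 was lower (-0.25 ± 0.10; log2 fold change ± SE), although the groups overlapped for Stat2. Stat3 (0.03 ± 0.05) and Stat6 (0.02 ± 0.04), which act downstream of gp130 and of IL-4, did not pass. Of 12 SOCS and PIAS inhibitors 4 were higher and 3 lower, 58.3% called against 67.2% of all tested genes.

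Of 15 tested genes of IL-1 and IL-17 signalling, 4 were higher and 11 did not pass, among them Myd88 (0.08 ± 0.11) and Traf3ip2 (0.07 ± 0.07 SE). That is 26.7% called, where 67.2% of all tested genes were called and 33.8% were higher. Sigirr, an inhibitory receptor of the IL-1 receptor family, was at 0.219 and 0.144 CPM in the control and at 0.737 and 0.839 CPM in the c-FOS libraries. The control values of Sigirr rest on 6.5 and 4.5 counts. It reached the filter's level of 0.339 CPM in the c-FOS libraries only and so had to be higher. The log2 fold change was 2.23 ± 0.42 (SE; adjusted p = 0.000416, edgeR), and nothing further is read from this call.

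The partner cytokines moved in both directions. Clcf1, a cytokine that signals through gp130, was at 7.04 and 6.39 CPM in the control and at 58.1 and 56.6 CPM in the c-FOS libraries. Its log2 fold change was 3.09 ± 0.07 (SE; adjusted p = 9.14e-13, edgeR). Cntfr, the specific chain of its receptor, had at most 0.0336 CPM in a library. Ctf1, cardiotrophin, another gp130 ligand, was lower, at 15.3 and 14.9 CPM against 7.57 and 6.94 CPM (-1.06 ± 0.09 SE; adjusted p = 3.4e-07, edgeR). Of 10 tested partner receptors 5 were higher and 3 lower, 80% called against 67.2% of all tested genes. The gp130 partners Lifr (0.41 ± 0.04) and Osmr (0.62 ± 0.05 SE on the log2 scale) were among the higher ones.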

How the data were processed

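RNA-seq was compared between 2 control and 2 c-FOS libraries, grouped by title in the labels. Per the series design text, quality-filtered reads went through TopHat and then HOMER; the submitters' processing notes also name DESeq2 and build mm9. Their versions, the strand setting and annotation are unknown, being not given in the sources used here. As for units, the authors deposited expected counts without normalization, in steps of 0.5 (48.0% of nonzero values carry a fraction), with each gene model's length.

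Of 24909 rows, 2 repeated a symbol and the row with the larger total was kept. The 26 symbols stored as dates were fitted but not named. Counts were rounded to whole numbers and tested with edgeR 4.0.16 (R 4.3.3): TMM factors, filterByExpr by group (minimum count 10, total 15), two-sided quasi-likelihood test between the groups, Benjamini-Hochberg adjustment at 0.05 over 12780 genes. The fit had 2 residual and 10.6 prior degrees of freedom and a common biological variation of 3.38%. CPM uses unrounded counts over the TMM-scaled library size; SD is over n = 2, and SE comes from the F statistic. The TMM factors were 1.05 and 1.05 for control libraries, 0.953 and 0.954 for c-FOS libraries. The scripts were tested on simulated data. Replicates differed by more than sampling noise (chi-square per degree of freedom 4.84 for the control and 1.94 for the c-FOS pair).

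Every tested member is given with its value in each library; signalling genes that are no member are named at a log2 fold change of at least 1 in size unless not reported here, and a few others as background. The members, gene lists, roles and receptor combinations were chosen with earlier results of these data known, and roles, receptor combinations and motifs were written down after the files were read. Some symbols are not reported here. Alternatives were RLE, upper-quartile and total scaling, DESeq2 1.42.0, no filter, a minimum count of 50, rounding down, a replicate block and leaving out each library. Promoter windows are from RefSeq (GRCm38.p6), matched by symbol.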

Additional observations from a re-analysis of the deposited data

How the results depend on the processing

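Under 12 alternatives, 16 of the 21 members called kept call and direction wherever the alternative tested them; the others (Il10rb, Il11, Il17d, Il17rb and Il1rl2) are given with their values above. With library totals, 11 members and 18 signalling genes were lower, against 7 and 10, and 5856 of all tested genes, against 4264. With DESeq2, 6 signalling genes and 3404 of all tested genes were lower. Leaving out each library in turn gave 11 to 15 members higher and 6 to 10 lower. Signs of log2 fold changes turned for 3 genes that did not pass. With each library left out in turn, Il20rb ranged from -1.09 to 0.50 (above 0 without control replicate 1, at 0.30, or c-FOS replicate 2), Il1r1 from -0.16 to 0.0291 and Il1rap from -0.18 to 0.0227 (both above 0 without control replicate 2). With the replicate number as a block, 14 members were higher and 7 lower, as without it, and 4243 and 4210 genes of all. Same-numbered libraries did not deviate together (r = -0.06 across 12780 genes, which are not independent), so the numbers were not taken as a pairing. A lone library left in a group was assumed to vary like the other group. Control counts of Il11, Il17d, Il33 and Il1rl1, at most 8.5 in a library, lay under the filter's minimum count of 10, which limits their fold changes. The filter also leaves the 28 low genes without a test.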
